A study of Macaca fascicularis with 64 samples.

Results

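Cholesterol and fatty acid synthesis was followed through 34 genes: 7 enzymes of the mevalonate pathway, 11 enzymes that turn its products into sterols, 5 regulators, 6 enzymes of fatty acid synthesis and desaturation, and 5 proteins of cholesterol transport and efflux. The genes were listed by their known roles and looked up by symbol, and 30 of the 34 were found among the 21041 macaque genes counted. The mevalonate enzymes ACAT2, IDI1 and FDPS and the elongase ELOVL6 were not matched and were not analysed here. The question was how the pathway differed among the 4 endocrine cell types of the pancreatic islet, and whether it differed between young and old animals within a type.

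Cholesterol is made from acetyl-CoA in the endoplasmic reticulum. The mevalonate pathway builds isoprenoid units, which are joined to squalene, closed to lanosterol and converted stepwise to cholesterol. When membrane cholesterol is low, SCAP escorts the transcription factors encoded by SREBF1 and SREBF2 to the Golgi apparatus, where they are activated by cleavage, and INSIG1 and INSIG2 hold SCAP back when cholesterol is high. SREBF2 mainly drives cholesterol genes and SREBF1 mainly fatty acid genes. Fatty acids start from malonyl-CoA made by acetyl-CoA carboxylase, are assembled by FASN, and are desaturated by SCD. FADS1 and FADS2 act mainly on dietary polyunsaturated fatty acids. Membrane cholesterol and lipid composition are known to bear on secretion of hormone granules from islet cells.

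Islet cells came from the tail part of the pancreas of 16 non-diabetic cynomolgus monkeys, namely 8 young animals aged 4 to 6 years (4 females, 4 males) and 8 old animals aged 18 to 21 years (4 females, 4 males). No group carried a transgene or received a treatment. Mouth pipettes were used to pick single cells, which were sequenced with unique molecular identifiers (UMIs, tags that let each captured RNA molecule be counted once) in 64 libraries, 4 per monkey. Tissue of the 16 monkeys was collected over 16 consecutive days, per the methods, and the day of each animal was not given, so that effects of animal and day cannot be told apart.

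Of 6141 cells, 5908 passed the filter of over 800 genes and over 10000 UMIs, and each was assigned to the type of its most abundant hormone among GCG, INS, SST and PPY. This gave 4503 α-cells, 1219 β-cells, 112 δ-cells and 74 PP-cells, with median depths of 64894, 74425, 43776 and 45772.5 UMIs per cell. UMIs were summed per monkey and type where a monkey had at least 5 cells of that type. All 16 monkeys had a sum of α-cells and of β-cells, 11 had a δ-cell sum (7 young, 4 old) and 6 a PP-cell sum (2 young, 4 old). They held between 14089079 and 27439498 UMIs in α-cells, 622124 and 19086370 in β-cells, 206257 and 706643 in δ-cells, and 208618 and 1498899 in PP-cells. Levels are given as CPM, the UMIs of a gene scaled to a common library total after TMM normalization, as the lowest, median and highest monkey. Because a molecule is counted once whatever its length, no length correction was made, and no levels of different genes are compared.

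The assignment was checked with markers that include other genes than the hormones. All 5 listed α-cell markers, 6 of 6 β-cell markers, 4 of 4 δ-cell markers and 3 of 3 PP-cell markers had their highest median level in their own type. MAFA, a β-cell transcription factor, had a median of 121.6 CPM in β-cells and 4.94 CPM in α-cells. IRX2, an α-cell transcription factor, had medians of 492.2 and 37.8 CPM in the same order of α- and β-cells. Hormones of other types were nonetheless counted in every type: the median GCG level was 74913 CPM in α-cells and 20753 CPM in β-cells. The leading hormone was under 4 times the next in 299 α-cells, 835 β-cells, 72 δ-cells and 66 PP-cells, and each comparison of types was therefore repeated with the remaining cells only, where enough were left. Markers of acinar, ductal, stellate, endothelial and immune cells (3, 4, 4, 4 and 5 genes in the files) were low in every type: the median summed level of a list was at most 38.6 CPM (ductal markers, α-cells), although single sums reached 884.7 CPM for acinar markers in α-cells, 135.6 CPM for ductal markers in δ-cells, 133.7 CPM for stellate markers in PP-cells, 85.8 CPM for endothelial and 91.6 CPM for immune markers in α-cells. Without the 66 cells that held over 0.1% of such UMIs, all calls of members between types were kept. No cell name occurred in more than 1 library, and no 2 retained cells had the same counts.

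β-cells were compared with α-cells of the same monkeys. Of the 29 members tested, 2 were higher in β-cells (SCD and ABCA1) and 2 were lower (FADS2 and LSS), with edgeR's quasi-likelihood test and Benjamini-Hochberg adjustment over 12899 genes. Over all genes tested, 25% were called (8.66% higher, 16.3% lower), which is a larger share than 4 of 29. The median difference of the members was 0.03 on the log2 scale, beside −0.11 for all genes.

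SCD, the enzyme that places the first double bond in saturated fatty acids, differed most. Its level was 13.3, 23.4 and 51.6 CPM in the lowest, median and highest α-cell sum, and 85.7, 165.5 and 294.5 CPM in β-cells. The groups did not overlap, and SCD was higher in β-cells than in α-cells in 16 of 16 monkeys. The log2 difference was 2.65 (SE 0.28, n = 16 monkeys, adjusted p = 5.38e-11 in edgeR), or 6.26-fold with a 95% interval of 4.25 to 9.21. At least 1 SCD UMI was found in 43.4% of α-cells and 79.5% of β-cells, and after every cell was thinned to 10000 UMIs in 15.95% of 4464 and 56.5% of 1213 cells. In the cells whose leading hormone was at least 4 times the next (11 monkeys with β-cells), the log2 difference was 2.63. The thinned share was 21.4% in δ-cells and 23.0% in PP-cells.

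FADS2, which starts the desaturation of dietary polyunsaturated fatty acids, went the other way. Levels were 14.3, 22.6 and 28.5 CPM in α-cells and 0.936, 4.93 and 18.1 CPM in β-cells. FADS2 was lower in β-cells in 16 of 16 monkeys, although the ranges overlapped through young female 1, the only monkey whose β-cells reached above the lowest α-cell sum. The log2 difference was −2.04 (SE 0.39, n = 16, adjusted p = 4.69e-05 in edgeR), or 4.12-fold lower with an interval of 2.39 to 7.11. It was −3.18 in cells whose leading hormone was at least 4 times the next. When log values were averaged over cells the FADS2 difference was −0.45, and the call was kept. That scale adds a constant to the level of each cell before the log. Its sizes therefore cannot be set beside those of summed counts. FADS1, which carries out a later desaturation of the same fatty acids, had medians of 7.69 CPM in α-cells and 6.13 CPM in β-cells, with a log2 difference of −0.24 (95% interval −1.10 to 0.63, adjusted p = 0.744 in edgeR).

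**Figure D1:**
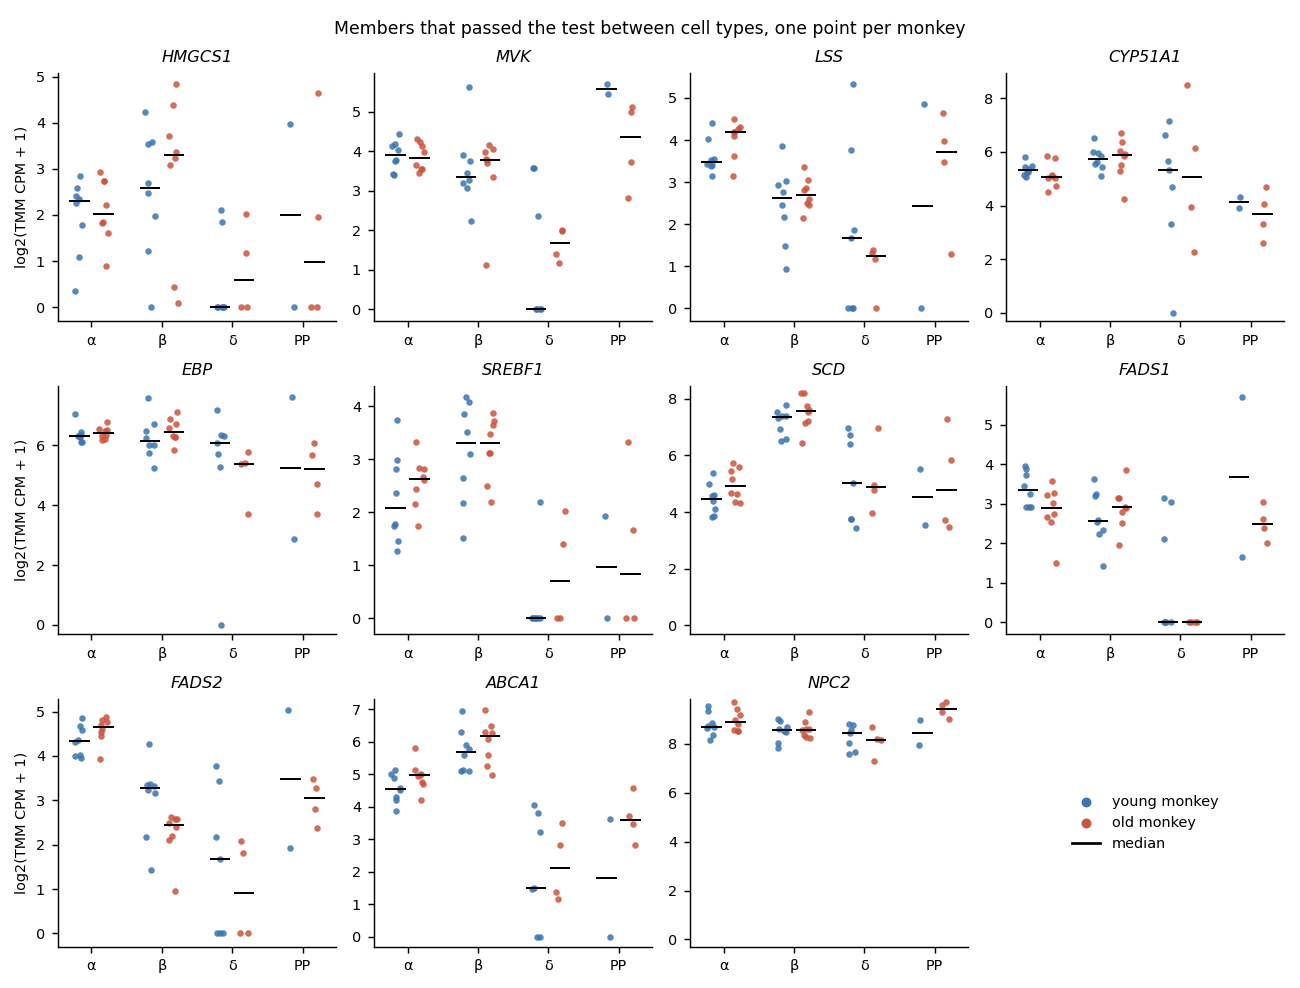
Levels of the 11 members that passed the test in a comparison of cell types, as log2(CPM + 1) of the UMI sum of each monkey (1 point per monkey, young and old marked) in α-, β-, δ- and PP-cells. SCD sits above every α-cell point in all 16 β-cell sums, FADS2 falls from α- to β-cells, and ABCA1 is at 0 in 2 of the 11 δ-cell sums and below every β-cell point in all of them.

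ABCA1, the transporter that exports cholesterol to apolipoprotein A-I, was at 13.6, 27.2 and 54.6 CPM in α-cells and 30.3, 56.0 and 123.9 CPM in β-cells. It was higher in β-cells in 15 of 16 monkeys, with overlapping ranges. This was a log2 difference of 1.14 (SE 0.28, n = 16, adjusted p = 0.00164 in edgeR). The call was lost in cells whose leading hormone was at least 4 times the next, where the difference was 0.58 (adjusted p = 0.224). LSS, which closes squalene epoxide to lanosterol, was at 7.91, 13.2 and 21.7 CPM in α-cells and 0.927, 5.40 and 13.4 CPM in β-cells. It was lower in β-cells in 15 of 16 monkeys, by a log2 difference of −1.48 (SE 0.42, n = 16, adjusted p = 0.00583 in edgeR). The LSS call was lost when log values were averaged over cells (−0.19, adjusted p = 0.0935). The size of −0.19 is on that per-cell scale and cannot be set beside −1.48.

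The other sterol enzymes did not pass the test between α- and β-cells. Beside LSS, the 10 remaining sterol enzymes had log2 differences from −0.35 (SQLE, the squalene epoxidase) to 0.72 (SC5D, which sets a ring double bond late in the pathway, adjusted p = 0.0724 in edgeR). CYP51A1, the lanosterol demethylase that acts right after LSS, had medians of 35.5 CPM in α-cells and 56.4 CPM in β-cells and a log2 difference of 0.60 (95% interval −0.06 to 1.27, adjusted p = 0.196). None of the 4 mevalonate enzymes passed, and their differences ran from −0.40 to 0.87. HMGCS1, which commits acetyl-CoA units to this pathway, had the largest of them (median 3.73 CPM in α-cells, 7.94 CPM in β-cells, adjusted p = 0.259).

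Of the regulators, none passed the test between α- and β-cells. SREBF2 had medians of 65.4 CPM in α-cells and 75.4 CPM in β-cells, with a log2 difference of 0.03 (95% interval −0.53 to 0.59). SREBF1 had medians of 4.75 and 8.91 CPM in that order and was higher in β-cells in 15 of 16 monkeys, with a difference of 0.94 (SE 0.39, adjusted p = 0.0709 in edgeR). INSIG1, INSIG2 and SCAP had differences of 0.34, 0.06 and −0.54. FASN, the fatty acid synthase itself, was too low to enter the test: 127 UMIs in 36 of 4503 α-cells and 70 UMIs in 15 of 1219 β-cells, with none in δ- and PP-cells. Counts of 0 allow up to 0.605 CPM over all δ-cells and 0.886 CPM over all PP-cells (3 UMIs, counting error only), beside pooled FASN levels of 0.394 CPM in α-cells and 0.686 CPM in β-cells. The limit in PP-cells was above both levels and the limit in δ-cells was above that of α-cells, so that these differences were not detectable at this depth. The δ-cell limit was below the pooled β-cell level, but within its exact 95% interval of 0.535 to 0.867 CPM. ACACA, the cytosolic acetyl-CoA carboxylase, had medians of 29.2 CPM in α-cells and 36.9 CPM in β-cells and did not pass the test.

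Beside ABCA1, no transport gene passed between α- and β-cells. STARD4, which carries sterol between membranes, had medians of 30.8 CPM in α-cells and 50.4 CPM in β-cells (log2 difference 0.63, adjusted p = 0.136 in edgeR). ABCG1, which exports cholesterol to high-density lipoprotein, was low in both types, with medians of 1.19 and 1.37 CPM. NPC1, the lysosomal membrane protein that releases cholesterol, and NPC2 had differences of 0.42 and −0.32, with adjusted p of 0.551 and 0.071 in edgeR.

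Of 25 other genes of sterol and fatty acid metabolism, 22 were in the files and 19 were tested between β- and α-cells, of which 2 were higher and 2 lower in β-cells, a share of 4 in 19 that is not above the 25% of all genes. ACLY, which supplies cytosolic acetyl-CoA, was at 258.8, 450.2 and 710.1 CPM in α-cells and 469.3, 955.8 and 2246 CPM in β-cells, a log2 difference of 1.15 (SE 0.11, adjusted p = 5.49e-12 in edgeR). SOAT1, which esterifies cholesterol for storage, had medians of 6.01 and 12.3 CPM in α- and β-cells and a difference of 1.30 (SE 0.46, adjusted p = 0.0325). ACACB, the mitochondrial acetyl-CoA carboxylase, was at 3.60, 6.93 and 13.4 CPM in α-cells but at 0 in 9 of 16 β-cell sums and at most 1.23 CPM in the rest, a difference of −5.34 (SE 0.60, adjusted p = 3.58e-10).

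**Figure D2:**
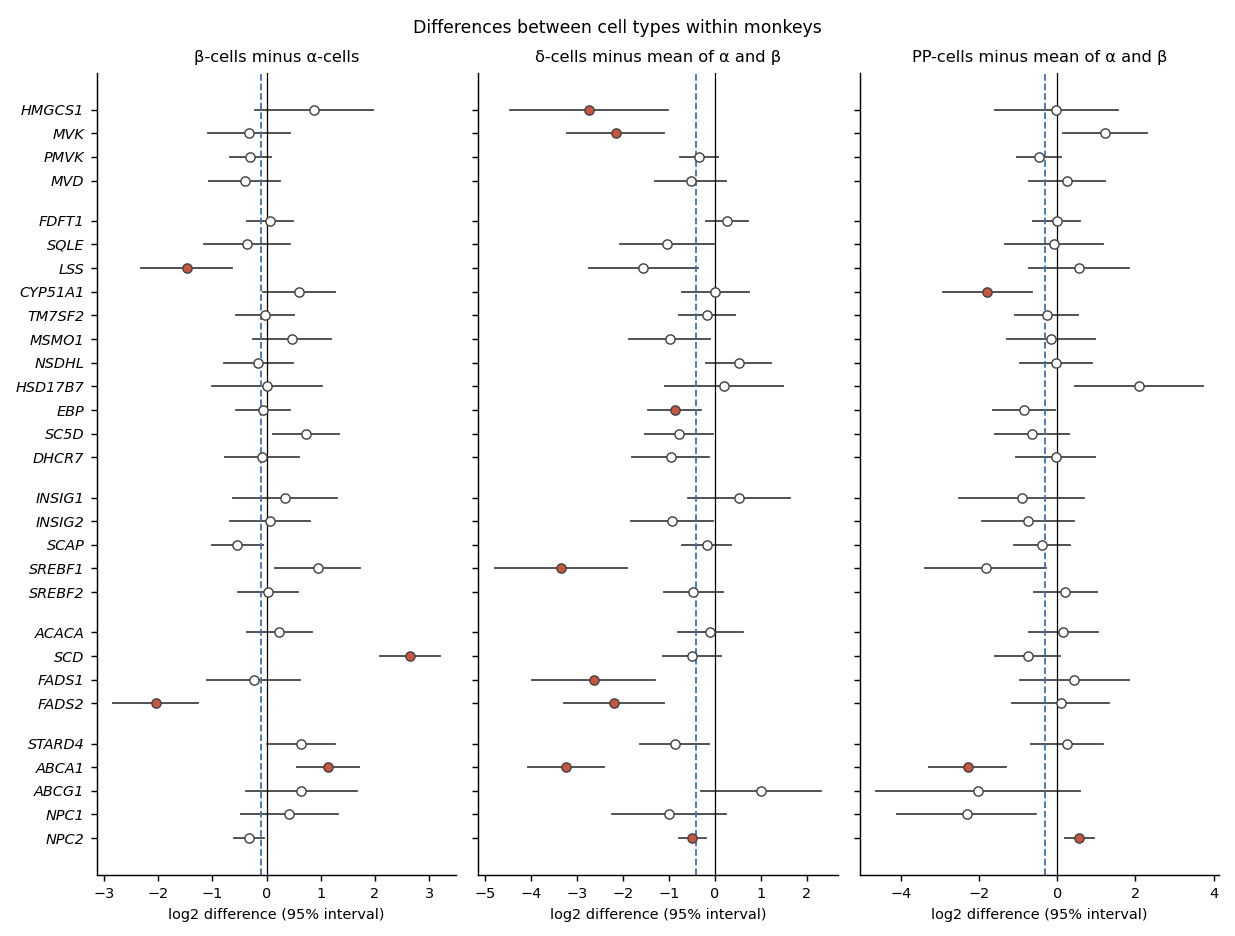
Log2 differences of the 29 tested members with 95% intervals, in 3 panels for β-cells minus α-cells, δ-cells minus the mean of α- and β-cells, and PP-cells minus that mean. Members with an adjusted p under 0.05 are red and the dashed blue line is the median of all genes tested (−0.11, −0.41 and −0.31); the δ-cell panel has 8 red points, all on the left.

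In δ-cells the called members were all lower than in α- and β-cells, and most called genes of any kind were lower too. Compared with the mean of α- and β-cells, 8 of 29 members were lower and none was higher in edgeR (15 members had an unadjusted p under 0.05, beside 4271 of 12899 genes, and DESeq2 called 7 lower and none higher). Over all 12899 genes, 19.6% were called (4.09% higher, 15.5% lower). The members' median was −0.78 on the log2 scale, beside −0.41 for all genes. That offset depends on the scaling: with relative-log-expression (RLE) size factors the median of all genes was −0.18, the split of all calls went from 527 higher and 2002 lower to 802 and 1188, and 6 members were called lower. Differences are therefore also given relative to the median of all genes.

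The 8 members belonged to every role. In the mevalonate pathway, HMGCS1 had 4 UMIs in all 11 δ-cell sums, 1 in each of 4 monkeys, whereas its median was 3.73 CPM in α-cells and 7.94 CPM in β-cells. Its log2 difference was −2.73 (SE 0.85, n = 11, adjusted p = 0.0182 in edgeR), or −2.33 relative to all genes. The HMGCS1 call was lost without old female 2 (adjusted p = 0.0509) and in cells whose leading hormone was at least 4 times the next (adjusted p = 0.447). It was also lost when log values were averaged over cells (−0.07, adjusted p = 0.416). The size of −0.07 is on the per-cell scale with an added constant and cannot be set beside −2.73. MVK, the mevalonate kinase, was at 0, 1.62 and 10.9 CPM in δ-cells, against medians of 13.7 CPM in α-cells and 12.3 CPM in β-cells. MVK was lower than in α-cells in 11 of 11 monkeys and lower than in β-cells in 8 of 11, and the difference was −2.16 (SE 0.53, adjusted p = 0.00255 in edgeR), or −1.75 relative to all genes.

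SREBF1 had 3 UMIs in all δ-cell sums together, from 3 monkeys, and none in the other 8. Over all UMIs of the type this was 0.605 CPM (exact Poisson 95% interval 0.125 to 1.77), against 4.75 CPM in α-cells and 9.81 CPM in β-cells. The ratio of the pooled levels was 7.84 times lower than in α-cells (exact interval 2.68 to 38.1, counting error only) and 16.2 times lower than in β-cells (5.53 to 78.7). The fitted log2 difference was −3.34 (SE 0.72, adjusted p = 0.000588 in edgeR), or −2.94 relative to all genes. Of 12 other settings, 11 tested SREBF1, and its call was kept in 10 of these and with any of the 16 monkeys left out. SREBF2 had a median of 45.4 CPM in δ-cells and a difference of −0.46 (95% interval −1.10 to 0.17, adjusted p = 0.313), so that of the SREBF pair it was SREBF1 that passed the test; whether the 2 genes differ from each other was not tested.

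Both FADS genes were lower in δ-cells. FADS1 had 8 UMIs in 3 of the 11 sums and 0 in the other 8, with a log2 difference of −2.63 (SE 0.67, adjusted p = 0.00339 in edgeR), or −2.22 relative to all genes. Of 12 other settings, 11 tested FADS1, and its call was kept in 10 of these. FADS2 was at 0, 2.18 and 12.7 CPM, below every α-cell sum in all 11 monkeys. Its difference was −2.20 (SE 0.54, adjusted p = 0.00265), or −1.79 relative to all genes, and the call was lost after thinning (−1.81, adjusted p = 0.0767). SCD was at 9.87, 30.4 and 125.3 CPM in δ-cells, with 3 sums below every α-cell sum and 4 above every α-cell sum, and did not pass against their mean (−0.49, adjusted p = 0.28).

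ABCA1 was the member with the smallest p in δ-cells. It was at 0, 1.81 and 15.6 CPM, lower than in α-cells in 11 of 11 monkeys and below every β-cell sum. The log2 difference was −3.24 (SE 0.41, adjusted p = 3.03e-08 in edgeR), or 9.42-fold lower with an interval of 5.30 to 16.7, and −2.83 relative to all genes. ABCA1 was also the only member with a call between β- and α-cells, between δ-cells and both, and between PP-cells and both. NPC2, the soluble lysosomal protein that hands cholesterol to NPC1, was at 155.6, 291.9 and 445.0 CPM in δ-cells, against medians of 441.7 CPM in α-cells and 381.1 CPM in β-cells. The NPC2 difference of −0.49 (SE 0.15, adjusted p = 0.0137) was −0.09 relative to all genes and was lost with RLE size factors (−0.26, adjusted p = 0.215), with DESeq2 (−0.26, adjusted p = 0.204), with library totals without the hormone genes (−0.32, adjusted p = 0.129) and without young female 2 (−0.40, adjusted p = 0.0566). EBP, a sterol isomerase, had a difference of −0.87 (SE 0.29, adjusted p = 0.0267), or −0.47 relative to all genes, and was lost with RLE size factors (−0.65, adjusted p = 0.114), with library totals without the hormone genes (adjusted p = 0.0795), without the monkey block (adjusted p = 0.106) and without old male 2 or young female 2 (adjusted p = 0.0757 and 0.0602).

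The thin sampling of δ-cells limits single values. Over all 11 δ-cell sums, ABCA1 had 27 UMIs, FADS2 had 16 and MVK had 17. In a δ-cell sum, 3 UMIs stood for 4.245 to 14.54 CPM before TMM normalization, above the δ-cell medians of these members. In the 4 δ-cell sums with a single MVK UMI, that UMI stood for between 1.27 and 4.16 CPM, and the highest CYP51A1 level in δ-cells, 361.1 CPM in old female 1, rested on 245 UMIs of which 155 came from 1 cell. Of the 40 δ-cells whose leading hormone was at least 4 times the next, only 2 monkeys had the 5 cells needed, and there none of the 8 calls was kept. These 8 members had negative log2 differences there, from −9.14 to −0.06, and the median over all genes was −1.33. The value of −0.06 lay above that median, so nothing is read from the negative signs alone.

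PP-cells were called different in 3 of 29 members, with a background of 9.93% over all genes (3.59% higher, 6.34% lower). The members' median was −0.09 on the log2 scale, beside −0.31 for all genes, and with RLE size factors the all-gene calls turned from 463 higher and 818 lower to 630 and 509. ABCA1 was at 0, 10.7 and 23.0 CPM in the 6 PP-cell sums, lower than in α- and in β-cells in 6 of 6 monkeys and below every β-cell sum. Its log2 difference was −2.29 (SE 0.49, n = 6, adjusted p = 0.00151 in edgeR), or −1.98 relative to all genes. With at least 20 cells per monkey, which left 1 PP-cell sum whose spread is assumed to equal that of the other types, the call was lost (−2.11, adjusted p = 0.0942).

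CYP51A1 was at 5.10, 14.9 and 25.1 CPM in PP-cells. It was lower than in α-cells of the same monkey in 6 of 6 monkeys, and all 6 PP-cell sums were below the α-cell sums of these 6 monkeys. The log2 difference was −1.78 (SE 0.56, adjusted p = 0.0345 in edgeR), or −1.47 relative to all genes. The call was lost with RLE size factors (−1.61, adjusted p = 0.0595), after thinning (−1.08, adjusted p = 0.193), without cells past the 95th UMI percentile (−1.63, adjusted p = 0.0517), with at least 20 cells (−1.11, adjusted p = 0.292), and without old male 2, old male 4 or young male 1 (adjusted p between 0.0603 and 0.0771). MVK, low in δ-cells, was at 6.03, 32.0 and 50.5 CPM in PP-cells, with a difference of 1.22 that did not pass (SE 0.53, adjusted p = 0.135).

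NPC2 was at 247.2, 567.2 and 839.7 CPM in PP-cells and was the member called higher, by 0.56 (SE 0.18, adjusted p = 0.0412). It was lost in 6 of 12 other settings and without any of old female 1, old female 2, old male 2, old male 4, young female 1, young male 1 or young male 2, with differences between 0.27 and 0.55 and adjusted p between 0.0675 and 0.378. The remaining members had log2 differences from −2.31 (NPC1) to 2.09 (HSD17B7, a sterol reductase), with SEs of up to 1.30.

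**Figure D3:**
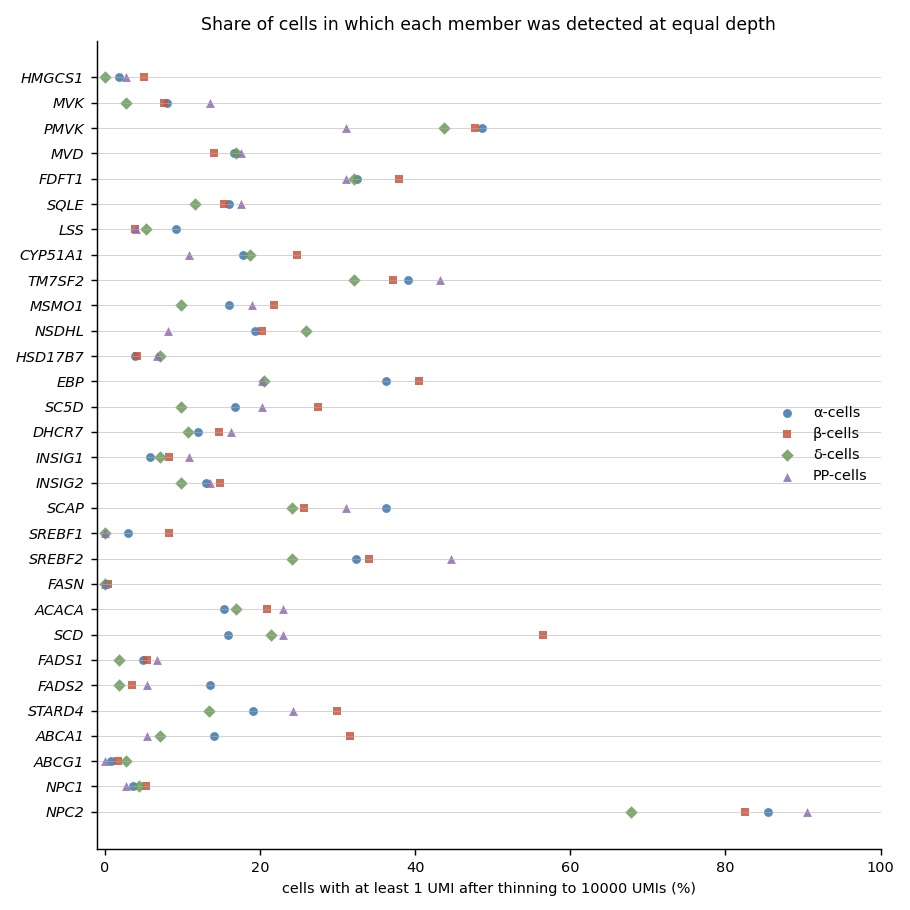
Share of cells with at least 1 UMI of each member in the 4 cell types, after every cell was thinned to 10000 UMIs. SCD stands at 56.5% in β-cells and between 15.95% and 23.0% in the other types, and NPC2 is lowest in δ-cells (67.9%).

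Old monkeys were compared with young ones within each type, with sex in the model. In α-cells, none of the 29 members tested passed edgeR's test after adjustment (1 had an unadjusted p under 0.05, beside 886 of 12916 genes), and DESeq2 called none. Of all 12916 genes tested in α-cells, 0% were called. The members' log2 differences ran from −0.60 to 0.57 with a median of 0.04, and their 95% intervals stayed within −1.30 and 1.26. In β-cells, none of 28 members passed (1 had an unadjusted p under 0.05, beside 589 of 10628 genes) and DESeq2 called none, beside 0.047% of 10628 genes (0.0376% higher, 0.00941% lower). Their median was 0.18, beside −0.01 for all genes, and the range was −1.04 to 0.82. ABCG1 was too low in β-cells to be tested for age.

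SCD had the smallest p in α-cells. Its level was 13.3, 21.2 and 40.9 CPM in young and 18.7, 30.0 and 51.6 CPM in old monkeys, with overlapping ranges and 3 old monkeys above all young ones. The log2 difference was 0.57 (SE 0.25, n = 8 and 8, unadjusted p = 0.037 and adjusted p = 0.705 in edgeR). In β-cells the SCD levels were 90.3, 161.4 and 220.8 CPM in young and 85.7, 188.3 and 294.5 CPM in old monkeys, a difference of 0.36 (SE 0.24, adjusted p = 0.969). All 5 regulators had positive differences in α-cells, from 0.15 to 0.34, of which none passed the test, and 2 of 5 were positive in β-cells.

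MSMO1, which removes methyl groups from the sterol ring, had the smallest p in β-cells. In young monkeys it was at 13.4, 24.1 and 53.2 CPM and in old monkeys at 24.7, 49.0 and 98.0 CPM. All 8 old monkeys were above the young median and 3 were above every young monkey, all 3 of them male. The log2 difference was 0.82 (SE 0.31, n = 8 and 8, unadjusted p = 0.0154 and adjusted p = 0.821 in edgeR). FADS2 showed the reverse order in β-cells, with 1.70, 8.71 and 18.1 CPM in young and 0.936, 4.47 and 5.15 CPM in old monkeys. All 8 old monkeys were below the young FADS2 median, and the difference was −1.04 (SE 0.50, adjusted p = 0.901). MSMO1 and FADS2 are named for their small p-values in the same data, so these counts of monkeys are a description only. The share of all genes with all 8 old monkeys on the same side of the young median was not computed.

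**Figure D4:**
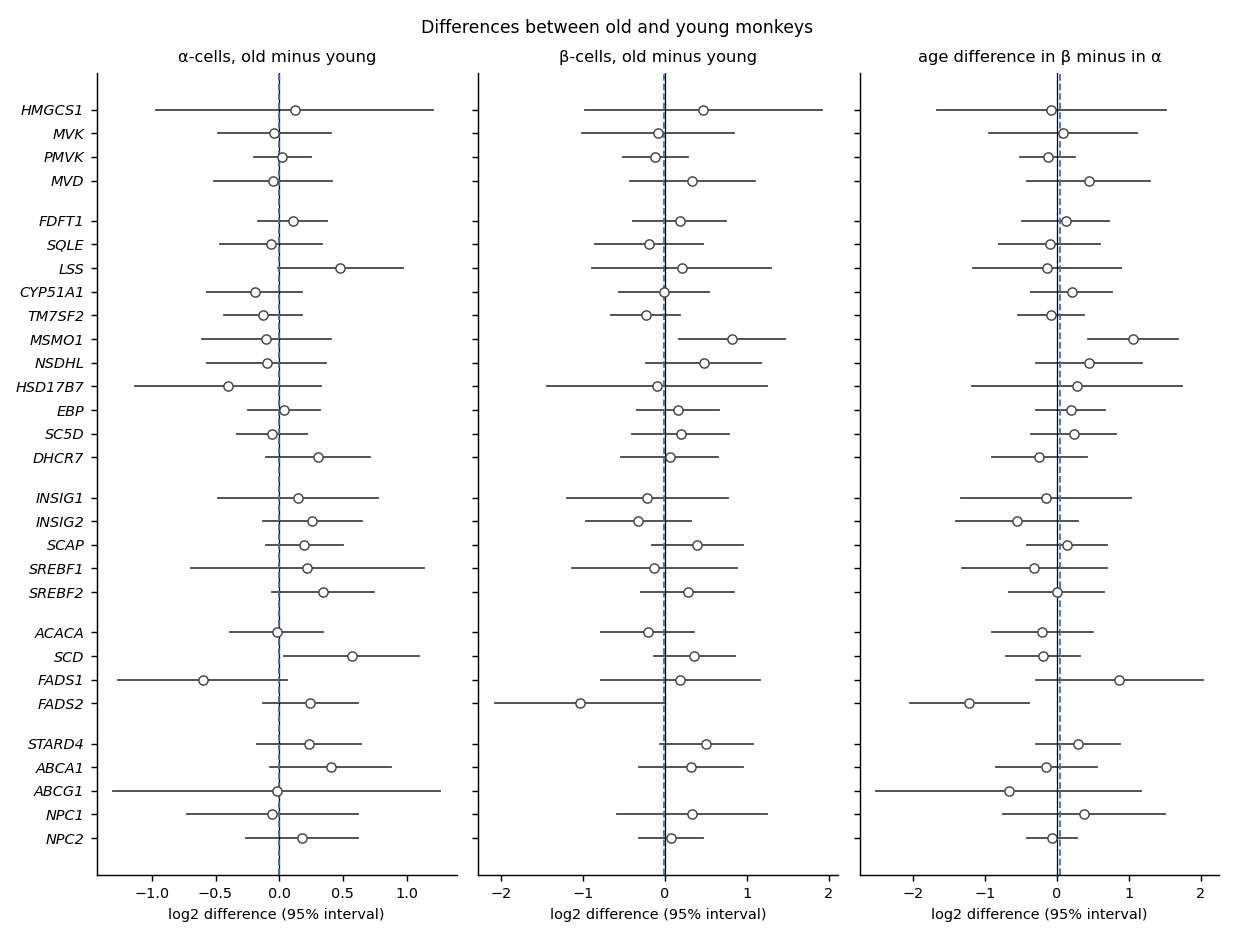
Log2 differences between old and young monkeys with 95% intervals for the members in α-cells, in β-cells, and for the difference between them (β-cells minus α-cells). No member has an adjusted p under 0.05, and most intervals cross 0.

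The difference in the age effect between β- and α-cells was itself tested. None of 29 members passed in edgeR (2 had an unadjusted p under 0.05, beside 754 of 12137 genes), and 0% of all genes were called. The 2 were MSMO1, with a log2 difference of 1.06 (SE 0.30, adjusted p = 0.61), and FADS2, with −1.21 (SE 0.40, adjusted p = 0.61). In α-cells MSMO1 had medians of 26.9 CPM in young and 26.6 CPM in old monkeys, and FADS2 of 19.3 and 24.2 CPM.

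Neither was age by sex called for any member. In α-cells 1 of 29 members and in β-cells 3 of 28 had an unadjusted p under 0.05, beside 698 of 12916 and 434 of 10628 genes. After adjustment 0.00774% and 0% of all genes were called. The 3 in β-cells were MSMO1, ABCA1 and CYP51A1. They are named for these p-values in the same data, so the levels below are a description only. How many of all genes separate without overlap in groups of 4 was not computed. In male β-cells MSMO1 was at 20.4, 22.0 and 38.6 CPM in 4 young and at 47.9, 80.5 and 98.0 CPM in 4 old monkeys, without overlap, by a log2 difference of 1.57 (SE 0.38, adjusted p = 0.257 in edgeR). In female β-cells MSMO1 was at 13.4, 28.3 and 53.2 CPM in young and at 24.7, 29.1 and 50.2 CPM in old monkeys, which overlapped. ABCA1 was at 33.4, 33.7 and 47.0 CPM in young and at 67.1, 77.2 and 88.8 CPM in old female β-cells, without overlap, whereas young and old males overlapped; its interaction term was −1.43 (SE 0.53, adjusted p = 0.9995 in edgeR).

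**Figure D5:**
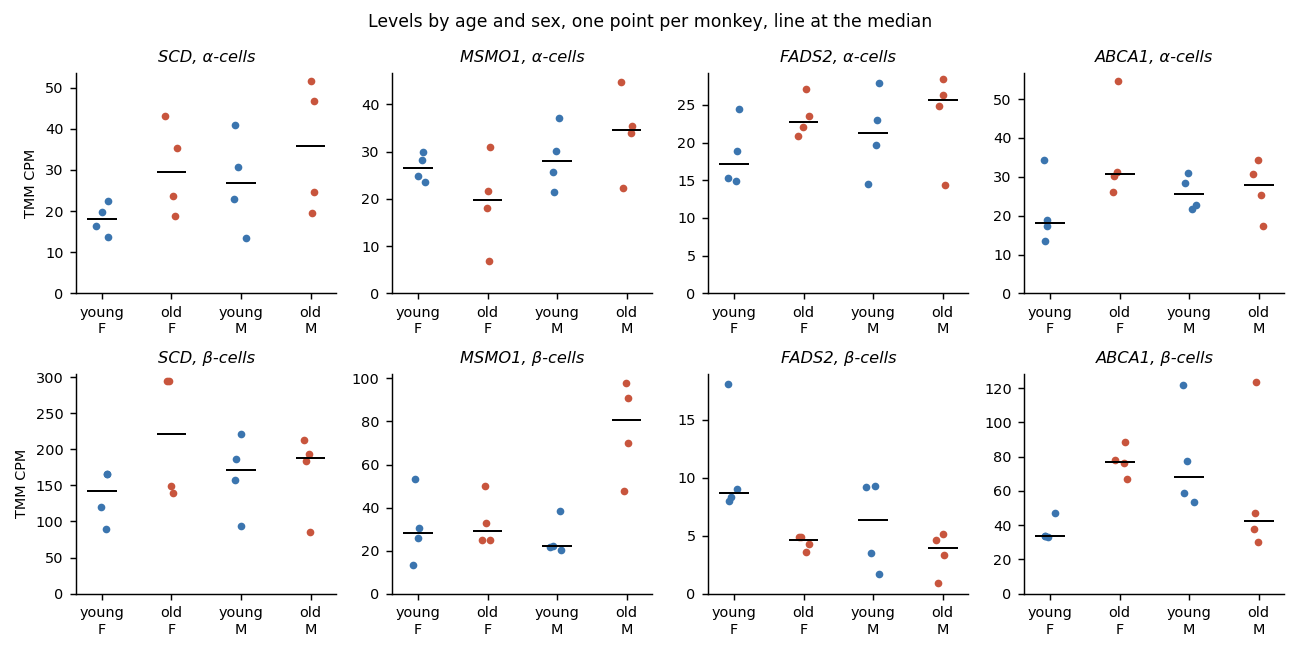
Levels of SCD, MSMO1, FADS2 and ABCA1 in CPM by age and sex in α- and β-cells, 1 point per monkey and 4 monkeys per group. MSMO1 in old male β-cells (47.9 to 98.0 CPM) and ABCA1 in old female β-cells (67.1 to 88.8 CPM) lie above the young monkeys of the same sex. Neither difference passed after adjustment (adjusted p = 0.257 and 0.9996 in edgeR). The share of all genes without overlap was not computed.

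In δ- and PP-cells 18 members each were tested for age. In each type none passed in edgeR, 1 had an unadjusted p under 0.05 (ACACA in δ-cells, HSD17B7 in PP-cells, beside 209 of 6484 and 394 of 6568 genes), DESeq2 called none, and 0% of all genes were called. The intervals were wide, from −5.25 to 4.05 in δ-cells and from −5.72 to 12.4 in PP-cells, so that large differences would not have been seen with 4 old δ-cell sums and 2 young PP-cell sums.

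Across the 16 monkeys, the level of a member in α-cells was set against its level in β-cells. Of 28 members, 23 had a positive Pearson correlation of log2 CPM, with a median of 0.31, and none passed a permutation test (100000 resamples, two-sided) after adjustment over the 28, while 6 had an unadjusted p under 0.05. SREBF1 had the highest (r = 0.67, permutation p = 0.00447, adjusted p = 0.0734; Spearman's rho = 0.61, permutation p = 0.0143, adjusted p = 0.1), and r was 0.55 without the 2 monkeys farthest from the median in α-cells. Within young monkeys r was 0.77 and within old monkeys 0.44 for SREBF1. INSIG2 had the lowest r (−0.63, permutation p = 0.00879, adjusted p = 0.082; rho = −0.62, permutation p = 0.0123, adjusted p = 0.1), which was −0.60 without the 2 farthest monkeys, −0.58 in young and −0.63 in old monkeys. When log2(CPM/10 + 1) was averaged over cells, 15 of 28 passed and the median r was 0.59. The share over all genes was not computed on either scale, so nothing particular to the members is read from these counts. Monkey, day and libraries are the same in both types.

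Between single cells of a type, the members hardly varied together. Over 435 pairs of members the median correlation was 0.02 among 4503 α-cells and 0.02 among 1219 β-cells, and the highest were 0.115 (PMVK with NPC2, α-cells) and 0.114 (DHCR7 with STARD4, β-cells). In cells with so few UMIs per member these weak values are a description of sparse counts only, and cells of a monkey share their libraries.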

How the data were processed

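Single islet cells of 16 monkeys were sequenced with a modified STRT protocol. The authors' reads were trimmed and then mapped with TopHat 2.0.12 to Macaca_fascicularis_5.0 (submitters' processing notes and methods; CASAVA 1.8 is also named there). Unique alignments were assigned to genes with htseq-count, each UMI entering once, and the authors deposited raw UMI counts per gene and cell without normalization. The strand setting is not given in the sources used here, so overlapping genes on opposite strands may not be told apart. Of 95 spike-in RNAs, which held 5.41% of UMIs, none entered the totals. Columns of samples outside the series numbered 0.

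Cells were kept where genes exceeded 800 and UMIs exceeded 10000 (5908 of 6141). The study retained 5575 cells, with a further filter on the mapping rate that was not used here. Each cell took the type of its highest hormone count. Doublets were not called, and an alternative left out cells past the 95th UMI percentile. Counts were summed per monkey and type (at least 5 cells). The test was edgeR's (version 4.0.16, R 4.3.3; TMM, filterByExpr, quasi-likelihood test, two-sided, Benjamini-Hochberg adjustment over all genes tested, threshold 0.05). The comparisons of types had the monkey as a block and the age tests had sex as a covariate. SEs were taken from the F statistic, and from the information matrix where F was under 0.01. In the age tests of a type, p-values measure the spread between monkeys. In the comparisons of types, the block takes out differences between monkeys. Those p-values rest on the spread that remains, estimated over the sums of all 4 types together. The δ- and PP-cell p-values therefore lean largely on the spread of α- and β-cell sums. The test was checked on simulated data without a monkey effect, for β- against α-cells and for age in α- and β-cells only. The δ- and PP-cell comparisons were not checked in this way. DESeq2 1.42.0 and limma 3.58.1 were alternatives. Pooled counts have exact Poisson intervals, and the limit behind a count of 0 is 3 UMIs. These cover counting error only. Tables were made in Python 3.11.15.

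Every listed gene is accounted for: those that passed a test are named with values, others by counts and ranges or beside a related gene. Other pathway genes were counted, and those named were taken from the smallest adjusted p. Some genes of that list are not reported here. The members and lists were chosen with earlier results of these data known. The alternatives were another tool, other scalings, no filter on low counts, stricter cells, thinning, means over cells, other blocks or covariates, and leaving out each monkey. Leaving out cells over 0.1% non-endocrine UMIs was chosen after seeing the data. The reference at hand is of another build, so no coordinates are given. Promoter and protein sequences were not used here.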

Additional observations from a re-analysis of the deposited data

Results flagged for a closer look

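In 14 of 116 groups of 8 monkeys, the highest or lowest monkey lay farther from the next than Dixon's 95% critical value, where chance gives about 1 in 20 groups of normally distributed values. Each group held the young or the old monkeys of 1 cell type, and highest, lowest and next refer to that group only. These were CPM on a linear scale and the share over all genes was not computed, so nothing is read from the number of such groups. In α-cells, old male 2 was highest for SQLE (57.59 CPM, next 35.0) and STARD4 (63.5 CPM, next 38.2), young female 4 for NSDHL (103.8 CPM, next 48.2), young male 3 for EBP (131.1 CPM, next 85.8) and DHCR7 (45.24 CPM, next 21.4), young male 4 for STARD4 (47.75 CPM, next 31.4), and old female 1 for ABCA1 (54.59 CPM, next 34.4). In β-cells, old male 2 was highest for NSDHL (92.82 CPM, next 48.4) and lowest for FADS2 (0.9357 CPM, next 3.33). Young male 3 was highest for EBP in β-cells as well (190.1 CPM, next 103.1). Old female 2 was highest for FADS1 (13.51 CPM, next 7.87), and young female 1 for FADS2 (18.13 CPM, next 9.27). In β-cells of young female 2, where 11 cells were counted, MVK was at 48.42 CPM (29 UMIs, 18 of them from 1 cell) and ABCG1 at 20.04 CPM (12 UMIs, all from 1 cell).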

How the results depend on the processing

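Members called between β- and α-cells numbered 4, and 8 with DESeq2, 8 after thinning, 12 with at least 20 cells per monkey and 7 with means of log values over cells. These shared 4, 4, 4 and 3 genes with the 4, and the other 9 settings gave 4 or 5. The calls over all genes were 1117 higher and 2105 lower in the main fit. They were 1353 and 2595 with DESeq2, 1184 and 1515 after thinning, 2419 and 4169 with at least 20 cells, and 1914 and 1161 with means of log values. Nothing about the members is read from these counts alone. In δ-cells, 8 became 4 where the leading hormone was at least 4 times the next (1 higher, 3 lower, none of the 8) and 13 with means of log values (7 of the 8). Over all genes, the δ-cell calls went from 527 higher and 2002 lower to 321 and 811, and to 576 and 2713. In PP-cells, 3 became 5 with DESeq2, 1 after thinning, 1 without cells past the 95th UMI percentile, and 5 with means of log values. Over all genes, the PP-cell calls of 463 higher and 818 lower became, in that order, 977 and 922, 275 and 628, 400 and 630, and 710 and 898. Leaving out each monkey in turn gave 4 to 5 calls between β- and α-cells, 7 to 11 in δ-cells and 2 to 3 in PP-cells, and 0 calls for age in every type. Of 181 values of single called members under other settings, 29 were no longer called and 0 changed sign, and of 240 values without a monkey 14 were no longer called. These signs were not taken relative to the median of all genes. Members called for age were 0 in every setting run, of which thinning left only 5 members tested in δ-cells and 2 in PP-cells. Correlations between α- and β-cells that passed rose from 0 to 15 of 28 with means of log values. The cause was not tested, and the share over all genes was not computed. With a replicate block (the number of a monkey within its sex) the members called for age were 0 in α-, β- and δ-cells. In α- and β-cells the deviations of same-numbered young and old monkeys correlated between −0.11 and 0.15, so that the numbers do not pair the monkeys, and in PP-cells the block could not be fitted. Not run for want of monkeys were the leading hormone in PP-cells and at least 20 δ-cells, and both settings for age in δ- and PP-cells. The alternatives of the tests of age between types and of age by sex were not run. Called genes of all kinds changed by over 1.5 times with at least 20 cells per monkey (β- against α-cells, from 1117 higher and 2105 lower to 2419 and 4169; PP-cells, from 463 and 818 to 233 and 268), with a leading hormone at least 4 times the next (δ-cells, from 527 and 2002 to 321 and 811), without the monkey block (PP-cells, 1172 and 1002) and for age with DESeq2 (from 0 and 0 to 18 and 6 in α-cells, from 4 and 1 to 28 and 11 in β-cells). Age calls over all genes in β-cells were also 11 and 10 without a filter, 9 and 1 with means of log values and 1 and 0 after thinning, and in δ- and PP-cells at most 4 and 5. With means of log values 1914 genes were higher and 1161 lower in β-cells. The total of a sum, at most 706643 UMIs in δ-cells, and the number of monkeys limit the δ- and PP-cell values.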

Other observations

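The other genes of sterol and fatty acid metabolism were also followed in the rarer cell types. In δ-cells, 2 of 19 tested were lower and none was higher in edgeR (5 had an unadjusted p under 0.05, beside 4271 of 12899 genes). Of all genes 15.5% were called lower there, so that the count is not above the background. ELOVL5, an elongase of polyunsaturated fatty acids, was at 0, 24.3 and 41.6 CPM in the lowest, median and highest δ-cell sum, against medians of 52.9 CPM in α-cells and 73.4 CPM in β-cells. The log2 difference of ELOVL5 was −1.49 (SE 0.31, n = 11, adjusted p = 0.000398 in edgeR). MBTPS2, a protease that cleaves SREBF proteins in the Golgi apparatus, had 32 UMIs in δ-cells, a median of 3.24 CPM and a difference of −1.80 (SE 0.50, adjusted p = 0.00801). In PP-cells, 2 of 19 were higher and none was lower, beside 3.59% higher and 6.34% lower of all genes. SCARB1, a receptor for high-density lipoprotein, was at 0, 31.0 and 87.7 CPM there and at medians of 10.9 and 13.1 CPM in α- and β-cells (log2 difference 1.63, SE 0.54, n = 6, adjusted p = 0.0432). ACACB rested on 20 UMIs in PP-cells, with 0, 7.12 and 25.5 CPM and a difference of 2.40 from the mean of α- and β-cells (SE 0.77, adjusted p = 0.0386). Against α-cells alone (median 6.93 CPM) ACACB was higher in 3 and lower in 3 of 6 monkeys, and it was at 0 in 9 of 16 β-cell sums. ELOVL5, MBTPS2 and SCARB1 were not among the members, and their calls were not compared across the other settings.

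For age, none of 19 such genes passed in α-cells (2 had an unadjusted p under 0.05, beside 886 of 12916 genes) and none of 16 in β-cells (1, beside 589 of 10628 genes). SCARB1 had the smallest p in α-cells, with medians of 9.71 CPM in young and 15.8 CPM in old monkeys and a log2 difference of 0.67 (SE 0.23, n = 8 and 8, adjusted p = 0.695 in edgeR). ACLY had positive differences in both types, 0.37 in α-cells (SE 0.15, adjusted p = 0.705) and 0.60 in β-cells (SE 0.24, adjusted p = 0.823).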
